A study of Mus musculus with 12 samples.

Results

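Pools of 5 and pools of 20 muscle fibers were compared across all genes, with 3 libraries of each pool size, which were 6 of the 12 libraries of the series. The fibers were myofibers of the extensor digitorum longus, a fast-contracting hindlimb muscle, of C57BL/6 mice. The labels name no genetic change and no treatment for any group, and they give no age, sex, number of animals or day of preparation. The pool size is the labelled difference between the groups. Single fibers were lysed directly in the lysis buffer of the kit according to the labels, and whole muscle RNA was taken with Trizol, but the labels make no separate statement on the lysis of the pools. The SMART-Seq HT kit used for all libraries copies small amounts of RNA into full-length cDNA and amplifies it. Nothing in the labels says whether 2 pools came from 1 animal, so that each p-value is set against the spread of the libraries at hand, which may be technical.

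A myofiber is one long cell with many nuclei, filled with sarcomeres. Adult fibers are typed by their myosin heavy chain, and Myh4, which encodes the fastest form, dominates this muscle. Fibers are usually taken from the muscle by digestion and handling, and immediate early genes, heat shock genes and genes of the muscle stress response are known to be induced by such steps in many tissues. Pooling more fibers puts more starting RNA into the same reaction and averages over more cells.

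The table held 55573 genes, of which 17113 passed the filter on low counts for these 6 libraries and were tested. The counted reads were 20880728, 8434050 and 24719718 in pools of 5 numbered 1 to 3. In the pools of 20 they were 8524467, 4702823 and 15345348. The muscle identity of the pools was clear in the markers: Acta1, skeletal muscle actin, had 17272, 18925 and 58905 RPM (reads counted for the gene per 1000000 counted in the library) in the pools of 5. It had 34177, 12101 and 37839 RPM in the pools of 20. Myh4 took 95.4%, 84.5% and 95.3% of the reads of the adult myosin heavy chain genes in pools of 5, and 97.0%, 98.5% and 96.6% in pools of 20. The lowest of the pools of 20 lay above the highest of the pools of 5, which gives an exact two-sided permutation p of 0.1, the smallest that 3 against 3 libraries allow. The second pool of 5 was the lowest for Myh4, and in it Myh1, the fast type between Myh2 and Myh4, took 14.1% of these reads (95% Clopper-Pearson interval 13.7 to 14.4, counting error only). Myh1 took 4.07% and 2.25% in the other pools of 5 and 1.03% to 2.81% in the pools of 20. Myh2, the oxidative fast type, took 0.52%, 1.42% and 2.48% in pools of 5 and 0.22%, 0.31% and 0.54% in pools of 20. Myh7, the slow myosin, took at most 0.193% in any of the 6 pools.

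2 libraries stood apart from the rest, 1 in each group. Mitochondrial ribosomal RNA took 38.3% and 34.2% of the reads in pools 1 and 2 of 5 fibers but 2.39% in pool 3, where 84.8% of the reads came from nuclear protein-coding genes. In the pools of 20, mitochondrial ribosomal RNA took 12.5%, 7.67% and 6.60%. Predicted genes, meaning gene models with systematic symbols such as Gm or Rik names, took 39.4% of the reads of the second pool of 20. They took 1.71% to 14.2% of those of the others. A single one of them, Gm10800, took 20.9% of the reads of that pool and between 0.002% and 1.05% in the others. This class also holds the nuclear ribosomal RNA model CT010467.1. It took 10.9%, 6.24% and 0.54% of the reads in pools of 5 and 4.02%, 2.60% and 1.39% in pools of 20. Protein-coding genes of the olfactory, vomeronasal, taste and trace amine receptors, 1519 in number, served as a measure of background. After all libraries were thinned to the same total, 32.5%, 58.3% and 1.25% of these receptor genes had a read in the pools of 5. In the pools of 20 the shares were 72.2%, 97.3% and 88.7%. The pools of 20 therefore had this background at a higher breadth in each library, with an exact two-sided permutation p of 0.1, and the number of genes with a read went the same way. At equal depth that number was 23029, 30237 and 15064 in pools of 5 and 31153, 48355 and 36734 in pools of 20. Its part in the gene differences below was not tested. List medians are given below on all 6 libraries and also without the third pool of 5 and the second pool of 20, where the median of all genes was 0.0084.

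**Figure D1:**
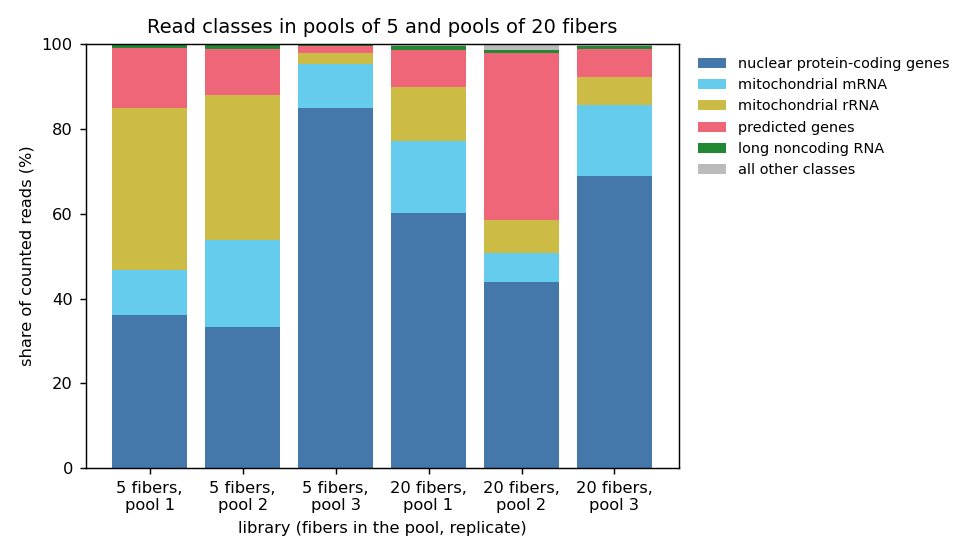
Share of counted reads (%) by gene class in each of the 6 libraries, as stacked bars that sum to 100. Mitochondrial ribosomal RNA reaches 38.3% and 34.2% in pools 1 and 2 of 5 fibers, and predicted genes reach 39.4% in pool 2 of 20 fibers. The predicted class includes the nuclear ribosomal RNA model CT010467.1.

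Pool size did not order the libraries by their distance from each other. Over 5766 genes that averaged at least 10 CPM (counts scaled by library, as RPM, but with the TMM factors described below), the median absolute log2 difference at equal depth was 0.27 between pools 1 and 3 of 20 fibers, the closest pair. Pools 1 and 2 of 5 fibers differed by 0.45. Across the groups, the same 4 libraries differed by 0.44 to 0.51, so that pools 1 and 2 of 5 fibers were about as far from each other as from pools 1 and 3 of 20 fibers. Pool 3 of 5 fibers lay 0.91 and 1.1 from the other pools of its group. Pool 2 of 20 fibers lay 1.31 and 1.24 from its own group, and 1.89 from pool 3 of 5 fibers, the widest gap of all 15 pairs. The spread of replicates was not lower in the larger pools: the median SD of log2 CPM over these genes was 0.66 in pools of 5 and 0.78 in pools of 20.

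**Figure D2:**
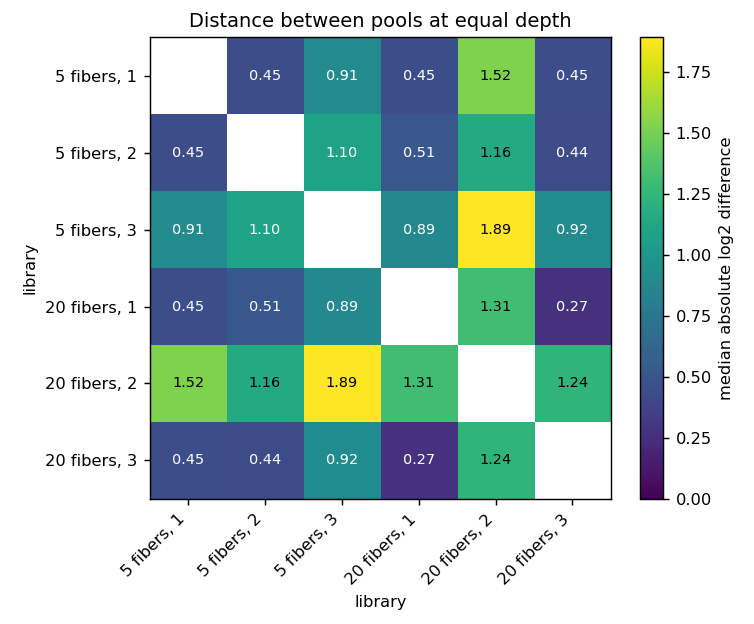
Median absolute log2 difference between each pair of the 6 libraries, after thinning to equal depth, over genes that averaged at least 10 CPM. Pools 1 and 3 of 20 fibers are closest (0.27), and pool 2 of 20 fibers and pool 3 of 5 fibers are the farthest apart (1.89).

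No gene was called. With edgeR's quasi-likelihood test and Benjamini-Hochberg adjustment, 0 genes (0%) passed an adjusted p of 0.05 as higher in pools of 20 and 0 (0%) as lower, and the lowest adjusted p was 0.37. At an unadjusted p under 0.05 there were 1502 genes, 854 higher (4.99%) and 648 lower (3.79%). DESeq2 on the same 6 libraries called 74 higher (0.296% of 24965) and 34 lower (0.136%), while limma's voom called 0 in either direction with a lowest adjusted p of 0.062. Of the 74 that DESeq2 called higher, 63 lay within the background density of the pools of 20 (reads per exon length no higher than in 99% of the receptor genes), 25 were receptor genes themselves and 38 were predicted genes or pseudogenes. None of its 34 lower calls was within the background of the pools of 5, and 31 were protein-coding. Lower calls have their high values in the pools of 5, where the receptor genes summed to 192, 583 and 5.91 RPM. In pools of 20 they summed to 1029, 8956 and 1800 RPM, so the check was easier to pass for lower calls.

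The calls of edgeR turned on single libraries. Without pool 3 of 5 fibers it called 9 genes higher (0.0482%) and 77 lower (0.413%), and without pool 2 of 5 fibers 11 and 38. Without both pool 3 of 5 fibers and pool 2 of 20 fibers it called 19 higher (0.112%) and 99 lower (0.582%), with pairs of libraries on each side. Of DESeq2's 34 lower calls, 26 (76.5%) were among those 99, of which they made up 26.3%.

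The scaling of the libraries mattered as well. The TMM factors, which edgeR uses to scale library totals, were 0.55, 0.75 and 0.65 in pools of 5 and 1.07, 2.42 and 1.43 in pools of 20. With them the median log2 fold change of all genes tested, in pools of 20 over pools of 5, was 0.08. With totals alone it was 1.41, and 1 gene was then called, the predicted gene Gm43185, as higher. Each list below is therefore given beside the median of all genes, and genes are counted on both scales. That median also moved with the filter on low counts. It was 0.95 with no filter beyond 1 read and -0.11 with a minimum of 10 CPM. The part of expression level in the place of a list beside this median was not tested. On TMM-scaled CPM, 2278 genes (13.3%) were higher in all pools of 20 than in all pools of 5 and 1272 (7.43%) were lower. On RPM, 6865 (40.1%) were higher and only 66 (0.386%) lower. These 66 genes lay below the pools of 5 on both scales, and 63 of them were protein-coding. They were chosen for this separation, so calls from the same libraries are not independent of the choice. DESeq2 called 27 of them lower (0.136% of all genes). Without pool 3 of 5 fibers and pool 2 of 20 fibers, edgeR called 30 of them lower (0.582% of all genes). Without those 2 libraries 586 genes (3.42%) met the same rule on RPM.

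The 10 named genes with the lowest unadjusted p in this direction were all among the 66. Each was called lower by DESeq2 (0.136% of all genes), by edgeR without pool 3 of 5 fibers (0.413%), and by edgeR without that pool and pool 2 of 20 fibers (0.582%). The 10 genes were picked on these same libraries for low p and no overlap of CPM, so these calls are not independent of the choice. Of the 10, only Srxn1 averaged 10 CPM or more in the pools of 20. None was called by edgeR on all 6 libraries without a block for the replicate number. Without pool 2 of 20 fibers alone, their adjusted p-values in edgeR's test were 0.72 to 1.00.

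Srxn1 encodes sulfiredoxin, which repairs oxidised peroxiredoxins and is a known target of the Nrf2 and AP-1 transcription factors. It had 765, 386 and 367 CPM in pools of 5 and 13.2, 9.46 and 14.3 in pools of 20. The group means were 506 ± 225 (SD, n = 3) and 12.3 ± 2.52 (SD, n = 3), with a ratio of 41.1 and a log2 fold change of -5.36 (SE 0.86). Its adjusted p was 0.37 in edgeR's test and 2.6e-14 in DESeq2. The gene lies on GRCm38 chromosome 2 at 152105516 to 152111376 (GENCODE vM21, plus strand).

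Lonrf3, a RING finger protein with a Lon-type domain, had 48.2, 57.3 and 32.0 CPM in pools of 5. It had 3.64, 1.89 and 1.06 in pools of 20, where it lay within the background density. Its log2 fold change of -4.40 (SE 0.65) had the lowest unadjusted p of the 10 in edgeR's test (3.7e-05, adjusted p 0.37).

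Myod1 encodes the transcription factor that commits cells to muscle and is known in activated satellite cells. It had 151, 119 and 98.1 CPM in pools of 5 and 10.9, 5.39 and 9.75 in pools of 20. The log2 fold change was -3.82 (SE 0.65, adjusted p 0.37 in edgeR's test). The gene lies on chromosome 7 at 46376474 to 46379099. Pax7 and Myf5, which mark satellite cells, did not go with it: Pax7 had 1.75, 5.56 and 1.00 CPM in pools of 5 and 3.97, 6.43 and 5.15 in pools of 20. Myf5 had 0.79, 0.64 and 0.93 against 1.76, 2.27 and 1.70 CPM, low levels in both groups. Of 10 satellite cell markers tested, 1, Myod1, was lower in all pools of 20 on CPM (7.43% of all genes). On CPM 1 was higher, Myf5 (13.3% of all genes), and on RPM 7 were higher (40.1% of all genes). In these bulk libraries, fewer cells of a type and less RNA per cell cannot be told apart.

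The other 7 named genes were Myc, Cd68, Maff, Arc, Pbdc1, Dusp5 and Slc2a1. Maff, a small Maf transcription factor that pairs with Nrf2, had 49.9, 42.9 and 42.1 CPM in pools of 5 and 4.19, 3.31 and 8.37 in pools of 20 (log2 fold change -3.08, SE 0.57). Myc, a growth regulator and immediate early gene, had 43.7, 18.0 and 40.9 against 4.41, 2.65 and 3.54 CPM (-3.28, SE 0.56). Dusp5, a nuclear phosphatase that switches off ERK, had 65.7, 42.4 and 20.5 against 6.40, 3.22 and 5.98 CPM (-3.04, SE 0.62). In all 3 genes each pool of 5 lay above each pool of 20, as the rule for names required. An antisense gene overlaps Dusp5 in the annotation, and whether the counts used strand is not given in the sources used here. Cd68, a lysosomal protein used as a macrophage marker, had 28.3, 12.1 and 24.6 against 3.42, 3.03 and 2.57 CPM (-2.85, SE 0.52). Mrc1, another macrophage marker, had 23.7, 11.8 and 16.4 against 23.2, 12.5 and 19 CPM, so that its groups overlapped. The median of the macrophage list, given below, lay above 0. Arc had a log2 fold change of -2.46 (SE 0.47), Pbdc1 of -3.26 (SE 0.64) and Slc2a1, the glucose transporter GLUT1, of -2.50 (SE 0.52).

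The stretches of 250 bases upstream of the start site were searched for 3 motifs known from stress-induced genes, on both strands: AP-1 (TGANTCA), the cAMP response element (TGACGTCA) and the core of the antioxidant response element (TGACNNNGC). RefSeq windows on GRCm38.p6 matched 7 of the 10 genes. AP-1 was found in 2 of the 7, against 7.82% of all 27025 genes with a window, the cAMP response element in 1 (1.77% of all genes) and the antioxidant core in 2 (11.5%). AP-1 and the antioxidant core can overlap. Srxn1 and Cd68 each held the AP-1 letters in 2 places, and a Maff start site had the cAMP response element 29 bases upstream. Lonrf3, Pbdc1 and Slc2a1 had no match in this window, which says only that these letters are not in it. Dusp5 and another Maff start site held the antioxidant core. The 3 windows with AP-1 or the cAMP response element are shown from 5′ to 3′ on the strand of the gene, with the motif in capitals. They are chr2:152105274-152105523 (plus strand), chr11:69666171-69666420 (minus strand) and chr15:79347270-79347519 (plus strand). A match is a description of the letters and not a bound site.
Srxn1: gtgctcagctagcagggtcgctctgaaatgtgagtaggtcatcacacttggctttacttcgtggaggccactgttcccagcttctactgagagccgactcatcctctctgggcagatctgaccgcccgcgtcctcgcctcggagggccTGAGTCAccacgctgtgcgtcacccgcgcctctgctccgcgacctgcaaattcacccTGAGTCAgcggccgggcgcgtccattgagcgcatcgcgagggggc
Cd68: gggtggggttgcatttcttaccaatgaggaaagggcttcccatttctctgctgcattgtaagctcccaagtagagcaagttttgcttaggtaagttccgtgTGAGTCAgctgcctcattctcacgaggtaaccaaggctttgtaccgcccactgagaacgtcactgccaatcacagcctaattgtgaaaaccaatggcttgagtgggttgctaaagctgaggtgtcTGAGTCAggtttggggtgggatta
Maff: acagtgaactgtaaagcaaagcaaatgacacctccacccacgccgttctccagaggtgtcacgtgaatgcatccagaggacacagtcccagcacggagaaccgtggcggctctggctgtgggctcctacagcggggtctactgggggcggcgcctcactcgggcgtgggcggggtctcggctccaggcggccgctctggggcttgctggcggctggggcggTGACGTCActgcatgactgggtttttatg

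The AP-1 matches began 102 and 45 bases before the start site in Srxn1, and 149 and 24 bases before it in Cd68.

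The other groups of the series are given side by side on the RPM scale. Srxn1 had 420, 288 and 239 RPM in pools of 5 and 14.1, 21.3 and 20.2 in pools of 20, while single fibers 1 and 3 had 992 and 1795 RPM and single fiber 2 had 33.2. Whole muscle had 22.5, 26.2 and 25.5 RPM. Myod1 had 63.8 to 88.6 RPM in pools of 5, 11.6 to 13.8 in pools of 20 and 10.8 to 20.2 in whole muscle, with 395, 11.9 and 900 in the single fibers. In both genes the pools of 20 sat near whole muscle, and 2 of 3 single fibers sat above the pools of 5. Over the 66 genes, single fibers 1, 2 and 3 exceeded every pool of 20 in 60, 25 and 62 genes. Of all genes tested, 11.81%, 11.96% and 16.95% did so in these fibers. Each whole muscle library exceeded every pool of 20 in 36 of the 66 (30.76% to 31.95% of all genes tested). Single fiber 2 lay below every pool of 5 in 45 of the 66 (36.29% of all genes tested). The 66 genes were chosen for low values in the pools of 20 and high values in the pools of 5. That choice makes such counts more likely, and nothing is read from them.

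**Figure D3:**
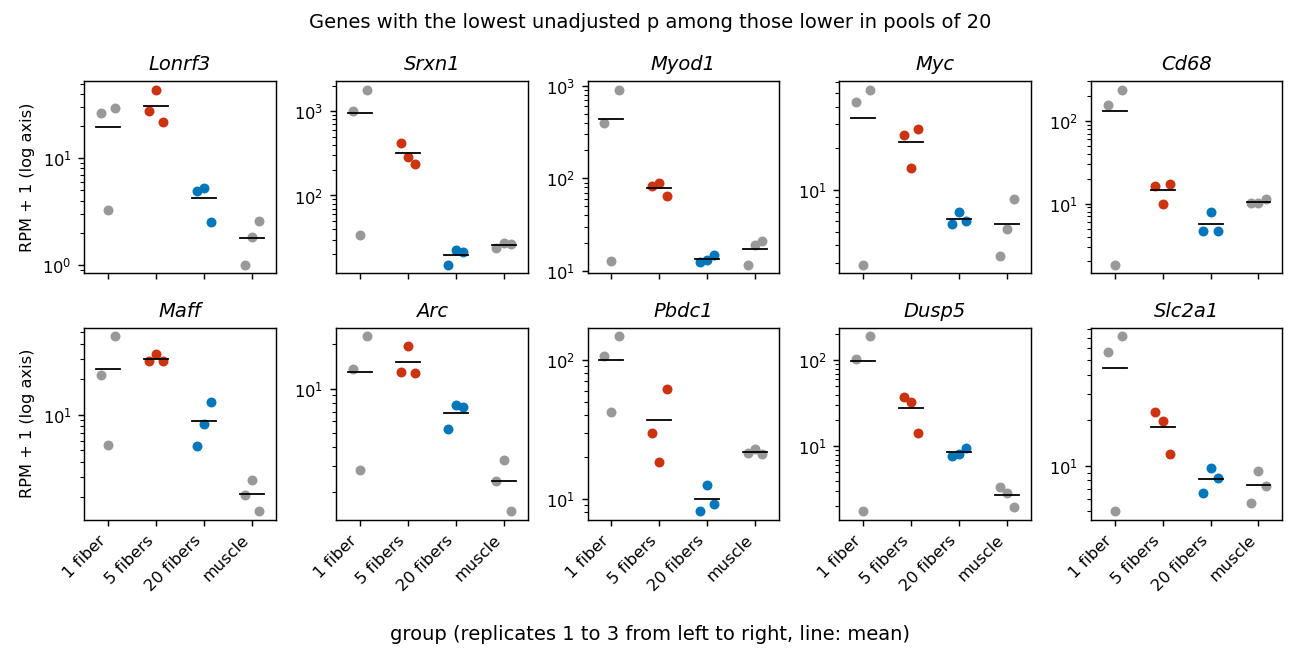
RPM + 1 on a log axis for the 10 named genes lower in pools of 20, in all 12 libraries of the series; points are libraries and lines are group means. In each panel the 3 pools of 20 lie below the 3 pools of 5, a separation that the rule for names required on CPM. Single fiber 2 is the lowest of its group.

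Immediate early genes code for transcription factors and signal regulators that respond within minutes to a stimulus. As a list they stood lower in pools of 20 relative to all genes tested, with no member called. This place was not particular to them, as the lists of contraction, metabolism and protein turnover below shared it on 6 libraries. The RPM sums of the immediate early genes were 3372, 3577 and 6234 in pools of 5 and 3754, 2429 and 5633 in pools of 20. These sums overlapped, with an exact two-sided permutation p of 0.7. All 30 tested members had a log2 fold change below the median of all genes, on TMM scaling and on totals alone. A change of scaling moves the genes and their median by similar amounts, so the count on totals is not a separate check. The list median was -1.28 on TMM scaling beside 0.08 for all genes, and -0.14 on totals beside 1.41. With a minimum of 10 CPM it was -0.84 beside -0.11. Without the 2 libraries that stood apart the list median was -0.80, and 24 of 30 lay below the median of all genes. On CPM, 16 of 30 were lower in all pools of 20 than in all pools of 5 (7.43% of all genes). On RPM 5 of 30 were lower (0.386% of all genes): Nr4a3, Klf6, Maff, Myc and Dusp5. On RPM 1 of 30 was higher in all pools of 20 (40.1% of all genes). No member was called by edgeR on 6 libraries. DESeq2 called 4 lower (0.136% of all genes), and edgeR called 6 lower (0.582% of all genes) without pool 3 of 5 fibers and pool 2 of 20 fibers.

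The 3 members with the highest mean CPM overlapped between the groups on RPM. Egr1, a zinc finger factor, had 1117, 1139 and 1254 CPM in pools of 5 and 534, 156 and 715 in pools of 20 (log2 fold change -1.32, SE 0.90). Fos, a component of AP-1, had 966, 715 and 1959 against 634, 168 and 668 CPM (-1.31, SE 0.94). Btg2, an inhibitor of proliferation, had 647, 433 and 1407 against 230, 56.1 and 263 CPM (-2.18, SE 0.93). In these 3 genes the second pool of 20 was far below the other pools of its group. Klf6, a zinc finger factor picked here after its values were seen, had 169, 120 and 94.7 against 10.5, 7.0 and 23.4 CPM (-3.23, SE 0.71). Nr4a1, an orphan nuclear receptor, had 178, 148 and 232 against 276, 70.8 and 238 CPM and a log2 fold change of 0.07 (SE 0.73), the only member above 0. Fos stood at 11.4 to 13.3 RPM in whole muscle and at 377 to 1273 RPM in the 6 pools.

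**Figure D4:**
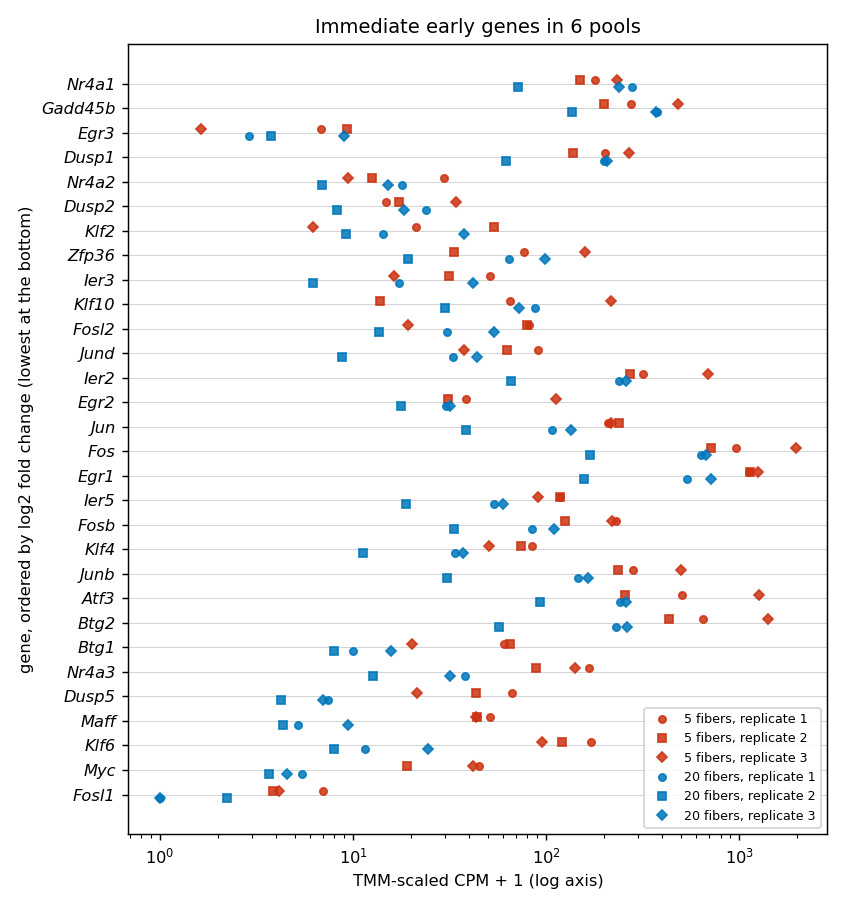
TMM-scaled CPM + 1 on a log axis for the 30 immediate early genes in the 6 libraries, ordered by log2 fold change. Myc, Klf6, Maff and Dusp5 near the bottom have wide gaps between pools of 5 and pools of 20, and Nr4a1 at the top has none.

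Heat shock and metal response genes, the chaperones and metallothioneins, had the lowest list median relative to all genes among the lists plotted below. It was -1.98 on TMM scaling and -1.36 without the 2 libraries that stood apart. All 17 tested members lay below the median of all genes on TMM scaling and without those libraries. They did so on totals too, which is not a separate check. Cryab, a small heat shock protein of the sarcomere, had 1281, 1403 and 2534 CPM in pools of 5 and 560, 127 and 557 in pools of 20 (log2 fold change -2.07, SE 0.98). Hspb6 had 1000, 952 and 3137 against 864, 120 and 706 CPM (-1.59, SE 1.06). Mt1, a metallothionein, had 1007, 437 and 2061 against 300.3, 63.1 and 400.2 CPM (-2.20, SE 1.02). On CPM 9 of 17 were lower in all pools of 20 (7.43% of all genes). On RPM 2 of 17 were lower (0.386% of all genes), Hsp90ab1 and Hspb7. The RPM sums of the list were 5516, 9391 and 7830 in pools of 5 and 4084, 2024 and 6993 in pools of 20. These sums overlapped, with an exact two-sided permutation p of 0.2. No member was called by edgeR on 6 libraries, by DESeq2 or without the 2 libraries. Hspa1a and Hspa1b, inducible HSP70 genes of nearly the same sequence whose reads may be shared, were high in pools 1 and 2 of 5 fibers and low in pool 3: Hspa1a had 612, 1318 and 43.7 CPM, against 80.6, 29.7 and 332 in pools of 20.

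Among 19 tested genes of atrophy and denervation, 7 were lower in all pools of 20 on CPM (7.43% of all genes) and 2 of them also on RPM (0.386% of all genes), while 3 were higher in all pools of 20 on RPM (40.1% of all genes). The list median was -0.83 beside 0.08 for all genes, with 15 of 19 below the median of all genes, and without the 2 libraries it was -0.65, with 13 of 19 below. The 2 genes lower on both scales were Ankrd1 and Csrp3, stretch-responsive proteins of the Z-disc and I-band. Ankrd1 had 1940, 376 and 367 CPM in pools of 5 and 127, 43.5 and 142 in pools of 20 (log2 fold change -3.10, SE 1.02). Csrp3 had 199, 415 and 106 against 8.71, 3.59 and 33.0 CPM (-3.98, SE 1.00). Both were called lower by DESeq2 (adjusted p 0.039 and 0.0029). Trim63, the ubiquitin ligase MuRF1 and a textbook atrophy gene, had 670, 546 and 378 against 425, 116 and 354 CPM (-0.83, SE 0.81), and its sign turned to 0.28 on totals alone. A list of 15 genes of the oxidative stress response, drawn up after the value of Srxn1 was seen, had a median of -1.36 beside 0.08 for all genes, with 13 of 15 below the median of all genes. Without the 2 libraries the median was -0.35, with 11 of 15 below. On CPM 7 of 15 were lower in all pools of 20 (7.43% of all genes). On RPM 2 were lower (0.386% of all genes), Srxn1 and Gclc, while 4 were higher in all pools of 20 (40.1% of all genes). Srxn1, which prompted the list, is counted in it. Gclc, which makes the first step of glutathione synthesis, had 26.5, 22.9 and 21.0 against 9.92, 4.73 and 8.69 CPM.

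Fast sarcomere and glycolysis genes did not keep their side of the median of all genes once the 2 libraries that stood apart were left out. The 30 fast sarcomere and calcium-handling genes had a median of -0.92 on 6 libraries, and 28 lay below the median of all genes. Without pool 3 of 5 fibers and pool 2 of 20 fibers the median was 0.34 and only 5 lay below. Myl1, a fast myosin light chain, had 20672, 8519 and 103852 CPM in pools of 5 and 22315, 4602 and 18788 in pools of 20, so that its high value belonged to pool 3 of 5 fibers. Glycolysis genes went from -0.37 to 0.38, with 18 and then 3 of 20 below the median of all genes. Aldoa, the muscle aldolase, had 13459, 6696 and 56188 against 15061, 2128 and 10957 CPM.

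Other lists of metabolism and protein turnover stayed below the median of all genes without the 2 libraries. The nuclear-encoded respiratory chain had a median of -1.54 with all 36 genes below the median of all genes, and -0.32 without the 2 libraries, with 36 still below. Mitochondrially encoded mRNAs had -0.95 and -0.90, with 13 of 13 below in both. As a share of reads they took 10.6%, 20.5% and 10.6% in pools of 5 and 17.0%, 6.91% and 16.7% in pools of 20. Among them mt-Co1, a subunit of cytochrome oxidase, had 28895, 53138 and 35149 CPM in pools of 5 and 14499, 3713 and 11657 in pools of 20, and mt-Nd1 had 49687, 76246 and 40107 against 47323, 8251 and 38856. Ribosomal protein genes had -0.93 and -0.12, with 57 and then 46 of 57 below. Proteasome genes had -1.68 and -0.15, with 26 and then 18 of 26 below. Slow sarcomere genes had -1.91 and -1.01 over 10 genes tested, among them Csrp3, and fatty acid genes had -1.24 and -0.42 over 19. On totals alone, beside 1.41 for all genes, the respiratory chain had a median of -0.51, proteasome genes -0.59 and slow sarcomere genes -0.64. Fatty acid genes had -0.10, mitochondrially encoded mRNAs 0.04 and ribosomal protein genes 0.14. The RPM sums of each of these lists overlapped between the groups. Except for Csrp3 without the 2 libraries, no gene of these 8 lists of contraction, metabolism and protein turnover was called by edgeR on 6 libraries or without the 2 libraries. The levels of ribosomal RNA itself differed more within pools of 5 than between the groups: mt-Rnr2 took 29.4%, 30.0% and 2.01% of reads in pools of 5 and 10.2%, 6.55% and 5.64% in pools of 20, with an exact two-sided permutation p of 0.4. The shorter mt-Rnr1 took 8.93%, 4.17% and 0.38% against 2.35%, 1.12% and 0.96%. The nuclear ribosomal RNA model CT010467.1, counted above among the predicted genes, followed with 10.9%, 6.24% and 0.54% against 4.02%, 2.60% and 1.39%. A miRNA gene model, Gm23935, took 0.03% to 1.16% against 0.39% to 1.51%.

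**Figure D5:**
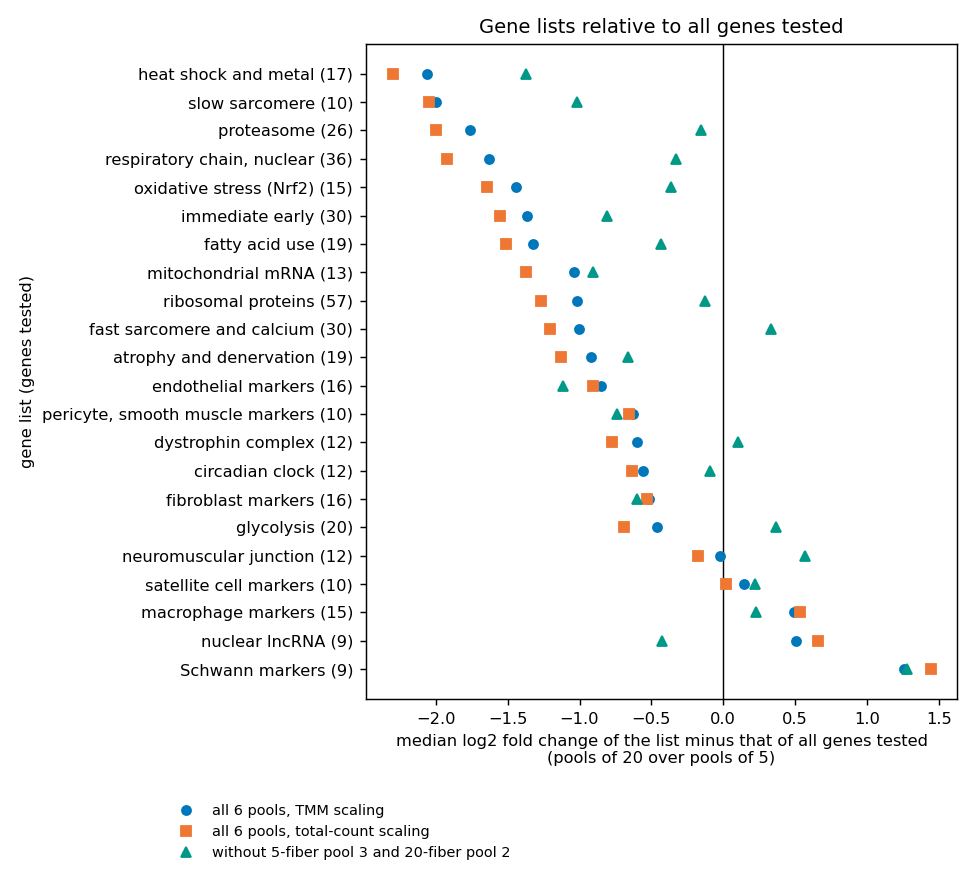
Median log2 fold change (pools of 20 over pools of 5) of each gene list minus the median of all genes tested, with the number of genes tested in brackets, under 2 scalings of all 6 libraries and with 2 libraries left out. Heat shock, slow sarcomere and immediate early lists are below 0 under all 3, as are others, among them the respiratory chain, proteasome and endothelial lists. Fast sarcomere and glycolysis lists change side when the 2 libraries are left out. The 2 scalings move the genes and their median by similar amounts and are not separate checks. The median of all genes also moves with the filter on low counts.

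In the other direction the named genes were at low levels. The 10 with the lowest unadjusted p were Scarf1, Atr, Rasa2, Snhg14, Cyb561d1, Prdm15, Pld2, Cd79b, Aox1 and Shprh, with log2 fold changes of 1.35 to 2.44 and an adjusted p of 0.53 in edgeR's test. None was called on 6 libraries or by DESeq2. Scarf1, a scavenger receptor of endothelial cells, was called without pool 3 of 5 fibers and pool 2 of 20 fibers (adjusted p 0.040 in edgeR's test). It had 8.03, 6.67 and 3.36 CPM in pools of 5 and 30.5, 13.6 and 26.7 in pools of 20. Cd79b, a subunit of the B cell receptor, had 9.17, 0.64 and 3.17 against 40.9, 9.18 and 21.7 CPM. Atr, a kinase of the DNA damage response, had 7.86, 7.94 and 3.73 against 19.8, 23.3 and 17.8 CPM. Snhg14 overlaps Ube3a, and its reads may not all be its own.

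On RPM, Scarf1 had 30.6 to 37.8 in pools of 20, 9.15 to 11.3 in whole muscle and 0 to 1.04 in single fibers. Aox1, an aldehyde oxidase, had 39.8 to 60.7 in pools of 20, 10.3 to 12.6 in whole muscle and 0.79 to 3.45 in single fibers. In both genes the pools of 20 were the highest of the 4 groups. The broader background of receptor genes in the pools of 20 moved in the same direction as these genes, and its part was not tested.

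The RPM sums of endothelial and fibroblast markers overlapped between the pool sizes. Endothelial markers summed to 509, 556 and 65.0 RPM in pools of 5 and 114, 293 and 1056 in pools of 20, and fibroblast markers to 496, 752 and 78.6 against 231, 465 and 1355. Both were lowest in pool 3 of 5 fibers and highest in pool 3 of 20 fibers, with exact two-sided permutation p of 0.8 and 0.7. On TMM scaling the median log2 fold change of the 16 endothelial markers was -0.77, with 15 below the median of all genes, and -1.11 without the 2 libraries that stood apart, with 16 below. That of the 16 fibroblast markers was -0.43, with 13 below, and -0.59 without the 2 libraries, with 15 below. These medians lay on the same side as those of the immediate early, heat shock and other lower lists, and their part in those was not tested. Fabp4, an endothelial fatty acid binding protein, had 234, 141 and 46.9 CPM in pools of 5 and 23.6, 12 and 241 in pools of 20. Macrophage markers summed to 30.5 to 54.8 RPM in pools of 5 and 37.7 to 155 in pools of 20 (Cd68 itself is given above). On TMM scaling their median log2 fold change was 0.57 over 15 tested, with 6 below the median of all genes. Without the 2 libraries it was 0.24, with 7 below. Schwann cell and nerve markers summed to 11.7 to 27.5 RPM and 38.1 to 88.2 RPM without overlap (exact two-sided permutation p 0.1), and 4 of the 9 tested lay within the background density of both groups. Lymphocyte and granulocyte markers summed to 5.74 to 10.9 RPM and 48.9 to 89.3 RPM, also without overlap (the same p of 0.1 in the exact test), and 2 of the 5 tested lay within that background. On this scale 40.1% of all genes were higher in all pools of 20. No marker of these lists was at 0 in all 6 pools. Whether these cells had a part in the differences of other genes was not tested.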

How the data were processed

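The deposited values are whole-number read counts per Ensembl gene, not normalized. The submitters' processing notes name HISAT2, SAMtools and featureCounts and the builds GRCm38 and mm10; versions, strand and multi-mapping settings are not given in the sources used here. Of 55573 identifiers, 55480 matched GENCODE vM21, from which names and coordinates were taken, and 93 did not.

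The 3 pools of 5 and 3 pools of 20 fibers were fitted on their own with edgeR 4.0.16 in R 4.3.3 (TMM factors, filterByExpr, glmQLFit, glmQLFTest, Benjamini-Hochberg adjusted p under 0.05, no covariate). Fold changes are pools of 20 over pools of 5. CPM are counts over the TMM-scaled total and RPM are counts over the plain total. limma 3.58.1 and DESeq2 1.42.0 were alternatives. For values of whole libraries, group means were set against each other in an exact two-sided permutation test. Depth ran from 4702823 to 24719718 counted reads per pool; for detected genes and distances, counts were thinned to the smallest total. Reads carry no molecular identifiers, so intervals cover counting error only.

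Members and gene lists were chosen with earlier results of these data known. Named genes were, per direction, the 10 with the largest fold among genes called, or, since none were called, with the lowest unadjusted p. They needed a mean of 10 CPM, no overlap of CPM and a level above background, and predicted genes and pseudogenes were left out. Named too were the 3 most counted members of a list, the adult myosins, mt-Rnr1, mt-Rnr2, Gm10800 and the 3 most counted predicted genes. Genes named outside this rule (Klf6, Nr4a3, Nr4a1, Hsp90ab1, Hspb7, Hspa1a, Csrp3 in its atrophy list, Gclc, Pax7, Myf5 and Gm43185) were chosen after their values were seen. Alternatives were other scalings and filters, other tools, all 12 libraries, a block for the replicate number, thinned counts and each library left out. Total-count scaling and leaving out 2 libraries together were chosen after seeing the data. Promoter windows are RefSeq's on GRCm38.p6.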

Additional observations from a re-analysis of the deposited data

How the results depend on the processing

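Genes called higher and lower numbered 0 and 0 with TMM factors, and the same 0 and 0 with RLE factors, upper-quartile factors, TMM factors from protein-coding genes, a minimum of 10 CPM, limma's voom, all 12 libraries, thinned counts and protein-coding genes only. DESeq2 gave 74 and 34, no filter beyond 1 read 0 and 6, total-count scaling 1 and 0, and leaving out pool 3 of 5 fibers with pool 2 of 20 fibers 19 and 99. Leaving out each library in turn gave 0 to 11 higher and 0 to 77 lower; the calls came without pool 2 (11 and 38) or pool 3 (9 and 77) of 5 fibers, and the other 4 gave none. The 66 genes below on RPM became 76 to 241 with each library left out and 586 without both libraries, where fewer libraries make the rule easier to meet. With a replicate block there were 0 higher and 1 lower (Lonrf3, adjusted p 0.027 in edgeR's test). Same-numbered pools had correlations of deviations of -0.35, 0.42 and 0.06 over genes, so the numbers were not taken to pair the samples. Pool 2 was the only number at which both sizes correlated best with their own number. Pool 3 of 20 fibers also correlated best with its own number, but pool 3 of 5 fibers did so with pool 1 of 20 fibers (0.49).

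Of 2119 alternative values for 113 genes, those chosen by the rule for names and others named in the text, 23 turned sign from a log2 fold change beyond 1 SE. On totals alone these were Trim63 (0.28), Rplp1 (0.12), Chrna1 (0.54), Per1 (0.38), Ly6c1 (0.014), Aqp1 (0.083), Thbs4 (0.16), Fmod (0.11) and Cnp (0.68). Without both libraries they were Eno3 (0.20), Pgam2 (0.11), Psmb6 (0.022), Psma6 (0.17), Chrna1 (0.71), Gm10800 (-0.64), Tnc (-0.36) and Ptprc (-0.081). Fmod turned to 1.41 in voom and to 1.89 with the replicate block, and Chrna1 to 0.057 with a minimum of 10 CPM. With each library left out, Gm10800 ran from -0.049 (without pool 2 of 20 fibers) to 4.12, Chrna1 from -1.30 to 0.44 (without pool 3 of 5 fibers) and Fmod from -2.55 to 4.34 (without pool 1 of 5 fibers). The cause was not tested. A further 43 values passed the threshold under an alternative. Depth limits low genes: 1 read was worth 0.213 RPM in the shallowest pool.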
